A study of Bos grunniens with 18 samples.

Results

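The receptor of the type I interferons and the proteins that carry its signal were examined at the RNA level in the whole blood of yaks (*Bos grunniens*). The genes were chosen by name from the deposited table, with earlier results of these data known. The receptor chains *IFNAR1* and *IFNAR2*, the kinases *TYK2* and *JAK1*, the transcription factors *STAT2*, *IRF9* and *IRF3* and the inhibitor *SOCS1* had a row, which makes 8 of 20607 genes. Of the 9 names in the rule, *IRF7* was not analysed here. The study compared 3 stages with 6 libraries each: Y-A stands for blood drawn during anestrus, Y-E for estrus and Y-P for pregnancy. According to the methods, the blood of 6 cows was sequenced, all of them adult females of 4 to 8 years from a herd bred by artificial insemination, in which estrus was synchronised with a progesterone pessary, cloprostenol and gonadorelin. The genotype of the cows and the day of pregnancy at sampling are not given in the sources used here.

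Total counts per library ranged from 30247267 to 48401076, so that a floor of 3 counts corresponded to 0.0604 to 0.107 CPM, the unit of counts scaled to library size after TMM normalization. The defining markers of blood cells were present: the 4 leukocyte markers found in the table, *PTPRC* among them, summed to between 8158 and 11470 CPM. Y-E replicate 6 stood apart from the other Y-E libraries in its red cell markers (*HBM*, *ALAS2* and *SLC4A1*), which summed to 4450 CPM against 91.3 to 168 CPM. This library is also absent from the study's supplementary data. Each member that passed the test is therefore also given without it. In whole blood, fewer cells of a type and less RNA per cell cannot be told apart.

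Type I interferons are secreted when cells sense viral nucleic acid, and ruminants use a further member of the family, interferon tau from the conceptus, to announce pregnancy to the mother. All of them bind one receptor, built from the chains IFNAR1 and IFNAR2. TYK2 is attached to IFNAR1 and JAK1 to IFNAR2, and the kinases phosphorylate STAT2, which works in a complex with IRF9 to switch on the interferon-stimulated genes. IRF3 acts upstream, where it induces interferon genes after nucleic acid has been sensed, and SOCS1 inhibits the kinases.

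By the coordinates of the deposited table (*Bos grunniens* genome, version v101), the genes of both receptor chains lie on the plus strand of chromosome 1. *IFNAR2* (ENSBGRG00000000131) spans positions 36786295 to 36826818 and *IFNAR1* (ENSBGRG00000000133) positions 36937136 to 36967325, 110317 bp further on. *TYK2* (ENSBGRG00000003025) lies on the minus strand of chromosome 8 from 15201086 to 15233626, and *JAK1* (ENSBGRG00000014206) on the plus strand of chromosome 3 from 87203903 to 87274868. *STAT2* (ENSBGRG00000002647) lies on the minus strand of chromosome 5 from 47874985 to 47887456. The other 3 are on plus strands: *IRF9* (ENSBGRG00000016917) on chromosome 11 from 2422219 to 2430373, *IRF3* (ENSBGRG00000023684) on chromosome 20 from 59012173 to 59017985, and *SOCS1* (ENSBGRG00000026522) on chromosome 26 from 36626211 to 36626882. The span of *IRF9* overlaps that of *RNF31* on the same strand, so its reads may have been divided between both genes. The annotated span of *SOCS1* is 672 bp with 1 transcript.

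All parts of the pathway except its inhibitor were abundant. On the FPKM scale, which divides by transcript length and allows genes to be compared, *JAK1* had the highest mean over the 18 libraries at 231 ± 43.0 FPKM (SD), rank 280 of all genes. *IFNAR1* followed at 194 ± 64.9 FPKM, and *IFNAR2* was at 104 ± 23.3 FPKM. The transcription factors were level with each other, with means of 96.5 FPKM for *IRF3*, 96.3 FPKM for *IRF9* and 95.2 FPKM for *STAT2*. *TYK2* was lower at 45.1 ± 7.15 FPKM, and *SOCS1* was lowest at 5.66 ± 5.45 FPKM. Between neighbours in this order, the ranges over the libraries were separate only from *STAT2* to *TYK2* and from *TYK2* to *SOCS1*. The order at the top depended on the stage, since *JAK1* was above *IFNAR1* in 6 of 6 Y-A and 6 of 6 Y-P libraries but in 2 of 6 Y-E libraries. *IFNAR1* exceeded *IFNAR2* in 17 of the 18 libraries.

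Pregnancy was first compared with estrus. Both receptor chains and the kinase *TYK2* were lower in Y-P than in Y-E, *IFNAR1* by 2.14-fold, *IFNAR2* by 1.55-fold and *TYK2* by 1.42-fold. None of the members was higher by the test, and the other kinase, *JAK1*, did not pass it. Thus 3 of 8 members (37.5%) passed an adjusted p of 0.05, all lower, against 14.4% of the 14508 genes tested in either direction, 8.68% lower and 5.77% higher. The median log2 fold change of the members was −0.27, beside 0.04 over all genes tested. With DESeq2, 4 members passed (20.7% of the genes to which it gave an adjusted p). Under the study's rule, which also asks for a fold change of 1 or more in log2 size, *IFNAR1* alone passed (2.67% of all genes).

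**Figure D1:**
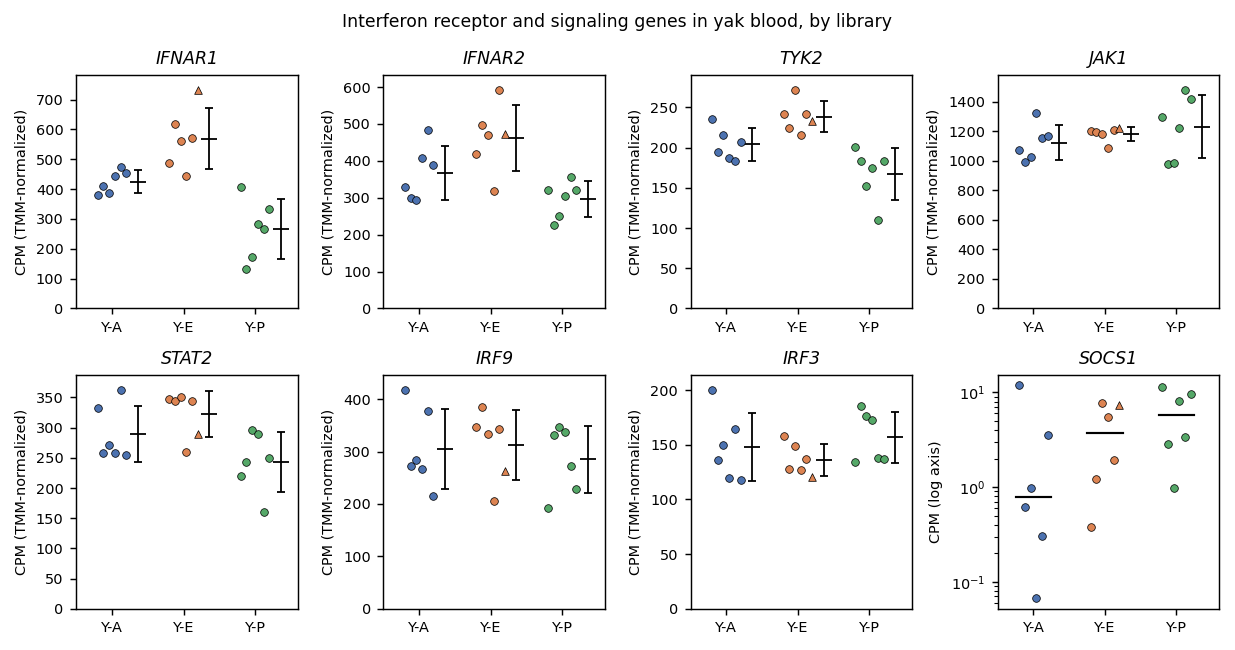
Level of each gene in CPM after TMM normalization (y axis) by stage (x axis). Each point is a library and Y-E replicate 6 is a triangle; the bar beside the points is the mean ± SD of 6 libraries, except for SOCS1, which is on a log axis with a line at the median. Every Y-P library of IFNAR1 and TYK2 lies below every Y-E library, while the JAK1 levels of the stages overlap.

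*IFNAR1*, the chain that carries TYK2, ran from 442 to 732 CPM in Y-E (median 567) and from 131 to 406 CPM in Y-P (median 274). In CPM the groups did not overlap, as for 3.84% of all genes in this direction, whereas in FPKM the highest Y-P library (223) was above the lowest Y-E library (214). The means were 569 ± 101.5 CPM in Y-E and 265.5 ± 101.4 CPM in Y-P (SD, n = 6). The difference was larger than the spread between replicates (log2 fold change −1.10, SE 0.21, adjusted p = 0.00212), with the Y-P library lower in 6 of 6 same-numbered pairs. How many of all genes lean one way in 6 of 6 pairs was not counted, here or below. Y-P was also the stage with the widest spread of *IFNAR1*, a coefficient of variation of 38.2% against 17.9% in Y-E and 9.06% in Y-A. The low end came from Y-P replicates 2 and 3, at 131 and 173 CPM, and the high end from Y-P replicate 1. Without Y-E replicate 6 the log2 fold change was −1.01 (adjusted p = 0.00446).

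*IFNAR2*, the chain that carries JAK1, ran from 319 to 592 CPM in Y-E (median 472) and from 227 to 357 CPM in Y-P (median 313). The groups overlapped because Y-E replicate 4 was at the level of the upper Y-P libraries. The means were 462 ± 90.2 and 297 ± 48.5 CPM (SD, n = 6), with a log2 fold change of −0.64 (SE 0.15, adjusted p = 0.0105) and a lower Y-P library in 6 of 6 pairs. The call was kept without Y-E replicate 6 (−0.63, adjusted p = 0.0172). On log2(FPKM + 1) values tested with limma it was lost (−0.44, adjusted p = 0.0575).

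*TYK2* ran from 216 to 272 CPM in Y-E (median 238) and from 110.5 to 201 CPM in Y-P (median 179). Again no Y-P library reached the lowest Y-E library in CPM, although the ranges overlapped in FPKM (26.98 to 52.6 against 46.8 to 54.1). The means were 238 ± 19.3 and 168 ± 32.2 CPM (SD, n = 6), with a log2 fold change of −0.51 (SE 0.12, adjusted p = 0.00899) and a lower Y-P library in 6 of 6 pairs. Without Y-E replicate 6 it was −0.51 (adjusted p = 0.0138). The call of *TYK2* depended on the scaling: with library sizes alone the log2 fold change was −0.35 (adjusted p = 0.0659), and with limma on log2(FPKM + 1) −0.33 (adjusted p = 0.0696). These scalings moved the median of all genes from 0.04 to 0.18 and 0.14. Relative to that median, *TYK2* was at −0.55, −0.54 and −0.47.

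*JAK1*, the kinase shared with many other cytokine receptors, gave no such difference. It ran from 1085 to 1220 CPM in Y-E and from 975 to 1478 CPM in Y-P, with 4 Y-P libraries above and 2 below every Y-E library. The log2 fold change was 0.06 (95% interval −0.18 to 0.29, adjusted p = 0.785), an interval that does not reach the value of *TYK2*.

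*STAT2*, whose protein binds IRF9 in this pathway, was between these cases. It ran from 260 to 351 CPM in Y-E (median 345) and from 160 to 295 CPM in Y-P (median 247). In 4 Y-P libraries it was below every Y-E library, and 5 of 6 pairs were lower. The log2 fold change of −0.41 (SE 0.14) missed the threshold (adjusted p = 0.0561), as it did without Y-E replicate 6 (−0.44, adjusted p = 0.0563). It passed with DESeq2 (adjusted p = 0.0303) and without Y-E replicate 4 (0.0349), Y-P replicate 3 (0.0404) or Y-P replicate 4 (0.0473) in edgeR.

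The remaining members overlapped widely. *IRF9* ran from 205 to 386 CPM in Y-E and from 193 to 347 CPM in Y-P, with a log2 fold change of −0.13 (95% interval −0.52 to 0.25) that turned to 0.02 with library sizes alone and to 0.05 with limma on FPKM. *IRF3* ran from 120 to 158 CPM in Y-E and from 134 to 185 CPM in Y-P, with a log2 fold change of 0.20 (95% interval −0.07 to 0.48, adjusted p = 0.325). With limma on log2(FPKM + 1), *IRF3* was higher in Y-P by 0.38 (adjusted p = 0.0224), of which 0.24 remained relative to the median of all genes. *SOCS1* ran from 0.379 to 7.76 CPM in Y-E and from 0.972 to 11.3 CPM in Y-P. Its log2 fold change of 0.58 (95% interval −1.27 to 2.43) was too imprecise to show a change of either sign at these counts, which ranged from 2 to 423 over the 18 libraries.

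**Figure D2:**
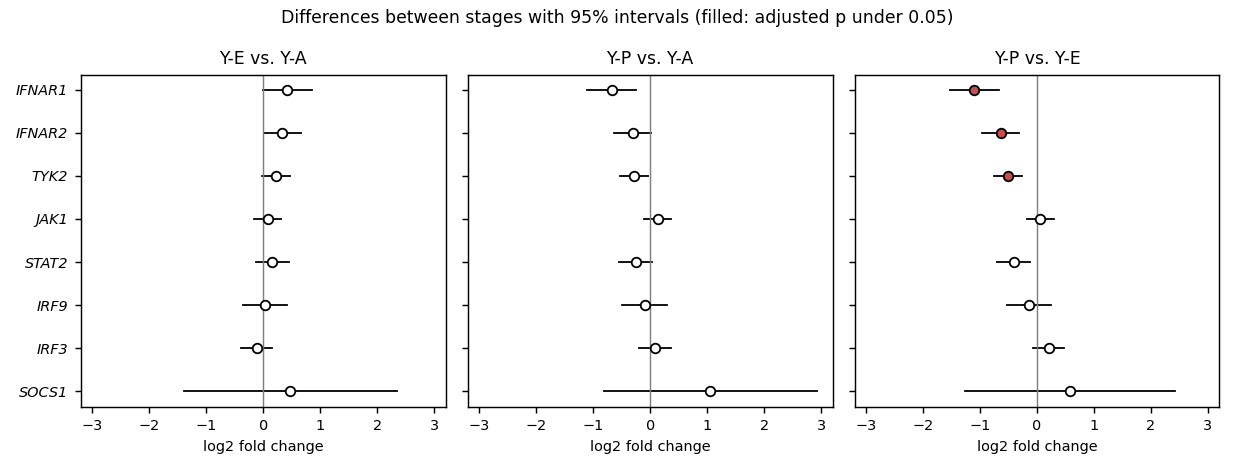
Log2 fold change of each gene (x axis) in the 3 comparisons, from edgeR; lines are 95% intervals and filled points passed an adjusted p of 0.05. Only IFNAR1, IFNAR2 and TYK2 in Y-P vs. Y-E are filled, and the interval of SOCS1 is the widest in every panel.

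Pregnancy was next compared with anestrus. In Y-P vs. Y-A none of the 8 members passed with edgeR, where 5.83% of all genes did. At an unadjusted p under 0.05 there were 2 members, *IFNAR1* and *TYK2* (22.7% of all genes). DESeq2 called 1, *IFNAR1* (10.9% of the genes to which it gave an adjusted p). The median log2 fold change of the members was −0.18, beside 0.03 over all genes.

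*IFNAR1* ran from 379 to 475 CPM in Y-A (median 427), and 5 of the 6 Y-P libraries were below all of these. The exception was Y-P replicate 1 at 406 CPM. The log2 fold change was −0.68 (SE 0.20, adjusted p = 0.0549), just outside the threshold. With the replicate number as a block it was −0.73 and passed (adjusted p = 0.0382), while over the 17 libraries without Y-E replicate 6 the block gave 0.0505. It also passed with DESeq2 (adjusted p = 0.0179) and in edgeR when Y-P replicate 1 (−0.84, adjusted p = 0.0176), Y-P replicate 6 (0.0481) or Y-E replicate 1 (0.048) was left out.

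*TYK2* (184 to 236 CPM in Y-A) and *IFNAR2* (294 to 483 CPM in Y-A) were lower in Y-P by smaller amounts. This held in 6 of 6 pairs each, a count not set against all genes. Their log2 fold changes were −0.28 (adjusted p = 0.164) and −0.30 (adjusted p = 0.245). *STAT2*, at 255 to 362 CPM in Y-A, gave −0.25 (adjusted p = 0.296). The other members had log2 fold changes of 0.13 (*JAK1*, 993 to 1322 CPM in Y-A), −0.10 (*IRF9*, 215 to 417 CPM), 0.09 (*IRF3*, 118 to 200 CPM) and 1.05 (*SOCS1*, 0.0672 to 11.9 CPM). The value of *IRF9* turned to 0.07 with library sizes alone and 0.11 with limma on FPKM. For *SOCS1* the 95% interval reached from −0.81 to 2.92. Its level in Y-A replicate 1 (11.9 CPM) decided the size, since without that library the log2 fold change was 2.44 (adjusted p = 0.107), and in Y-A replicate 4 it had 2 counts, under the floor.

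Estrus was then compared with anestrus. In Y-E vs. Y-A no member passed with edgeR, where 0.0207% of all genes did. None passed with DESeq2 either (1.18% of the genes to which it gave an adjusted p). It gave none to *SOCS1* in this comparison. At an unadjusted p under 0.05 there was 1 member, *IFNAR2* (6.2% of all genes). The median of the members was 0.19, beside −0.01 over all genes. *IFNAR1* was higher in Y-E in 5 of 6 pairs (log2 fold change 0.42, 95% interval −0.00 to 0.85, adjusted p = 0.811). In FPKM its Y-E libraries (214 to 340) all lay above its Y-A libraries (152 to 203), which was not so in CPM. How many of all genes are separated in FPKM was not counted. *IFNAR2* gave 0.33 (adjusted p = 0.777) and *TYK2* 0.22 (adjusted p = 0.86), the latter higher in 6 of 6 pairs. *STAT2*, *JAK1*, *IRF9*, *IRF3* and *SOCS1* were at 0.16, 0.07, 0.03, −0.12 and 0.48, all with an adjusted p of 0.999. Without Y-A replicate 1 the value of *SOCS1* was 1.88 (adjusted p = 0.589), and without any one of the other libraries it was between 0.19 and 0.72. *IRF9* turned to between −0.06 and −0.00 without Y-A replicate 4 or 6 or Y-E replicate 1 or 2.

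In a test over the 3 stages together, *IFNAR1* (adjusted p = 0.00644), *TYK2* (0.0262) and *IFNAR2* (0.0289) differed, 3 of 8 members against 11.0% of all genes. *STAT2* did not pass (0.136), and the other 4 were at 0.569 or above. Leaving out Y-E replicate 3, Y-E replicate 5 or Y-P replicate 3 brought the count to 1.

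Levels of receptor partners were also set against each other within a library, where the scaling between libraries cancels. These ratios were chosen after the levels had been seen. *IFNAR1* FPKM was 1.97 ± 0.238 times that of *IFNAR2* in Y-A and 2.08 ± 0.333 times in Y-E (SD, n = 6), but 1.46 ± 0.424 times in Y-P. The Y-P ratios ran from 0.964 in replicate 2 to 2.11 in replicate 1. On the log2 scale the difference was −0.55 in Y-P vs. Y-E and −0.47 in Y-P vs. Y-A, and neither passed a two-sided exact permutation test after adjustment over 9 tests (adjusted p = 0.0974 for both; unadjusted 0.0238 and 0.0325). Without Y-P replicate 1 both passed (−0.67 and −0.59, adjusted p = 0.026 by the exact permutation test).

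For the kinases, *TYK2* FPKM was 0.231 ± 0.0174 of *JAK1* in Y-E, 0.211 ± 0.0348 in Y-A and 0.161 ± 0.0433 in Y-P. The log2 difference of −0.57 in Y-P vs. Y-E passed the exact permutation test (p = 0.00433, adjusted p = 0.039, where the smallest possible p is 0.00216). The adjusted p was 0.0779 without any one of Y-E replicates 1, 3, 4, 5 and 6 or of Y-P replicates 3, 4, 5 and 6, with the difference at −0.61 to −0.53 except without Y-P replicate 5, where it was −0.40. That library had the lowest ratio, 0.0855. With 1 library left out, the exact test has fewer arrangements and its smallest possible p is larger. The lost call alone therefore does not show dependence on single libraries. An exact test of the 6 same-numbered pairs gave the same difference of −0.57 with an adjusted p of 0.141, where the smallest p before adjustment is 0.0312. After adjustment over 9 tests, this paired test could pass only if most of them reached that smallest p, so it decides little. The ratio of *STAT2* to *IRF9* was 1.10 ± 0.131 in Y-E and 0.916 ± 0.22 in Y-P, a log2 difference of −0.29 that did not pass (exact permutation test, adjusted p = 0.179).

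**Figure D3:**
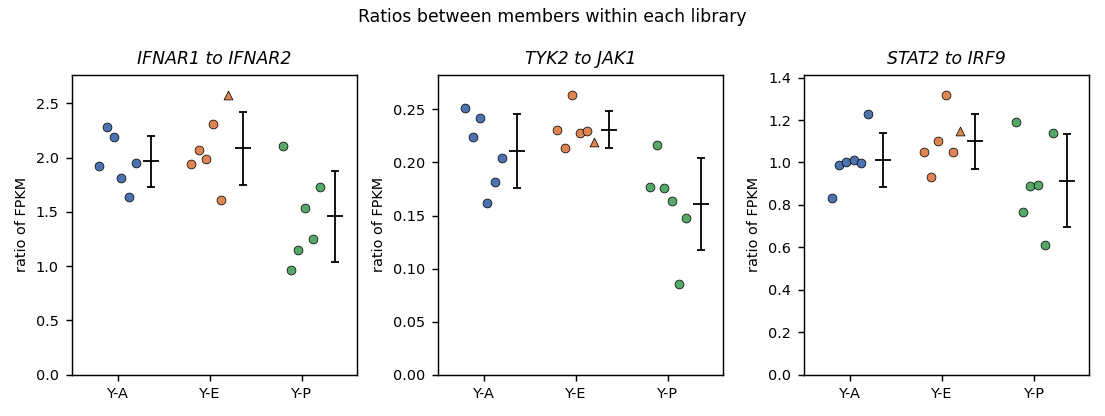
Ratio of the FPKM of 2 members within each library (y axis) by stage (x axis); points are libraries, the triangle is Y-E replicate 6, and the bar beside the points is the mean ± SD of 6 libraries. The ratio of TYK2 to JAK1 is lowest at 0.0855 in a single Y-P library, and the ratio of IFNAR1 to IFNAR2 spans 0.964 to 2.11 in Y-P.

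The members were then compared in how they varied between libraries of the same stage, after the stage means of log2 CPM had been subtracted. Of 28 pairs, 7 had an adjusted p under 0.05 by Pearson's r and by Spearman's rho (100000 permutations within stages, adjusted over the 28 pairs), and 6 of the 7 were positive. How often pairs of other genes vary together this closely was not counted, so the correlations may not be particular to the members. The 18 libraries may come from the same 6 cows and may not be fully independent, so r is also given within the stages. The receptor chains varied together and with *JAK1*. For *IFNAR2* and *JAK1*, r was 0.75 (permutation adjusted p = 0.0028) and rho 0.83 (0.00308), with r of 0.75, 0.84 and 0.97 within Y-A, Y-E and Y-P. For *IFNAR1* and *IFNAR2*, r was 0.66 (permutation adjusted p = 0.00868) and rho 0.71 (0.00795), with 0.89, 0.66 and 0.86 within stages. For *IFNAR1* and *JAK1*, r was 0.74 (permutation adjusted p = 0.038) and rho 0.74 (0.00795), with 0.63, 0.74 and 0.82 within stages.

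The transcription factors formed the other set. For *IRF9* and *IRF3*, r was 0.80 (permutation adjusted p = 0.00434) and rho 0.82 (0.00476), with r of 0.94, 0.49 and 0.90 within Y-A, Y-E and Y-P. *STAT2* went with *IRF9* (r = 0.69, permutation adjusted p = 0.0171; rho = 0.78, 0.00616) and with *IRF3* (r = 0.68, permutation adjusted p = 0.0171; rho = 0.74, 0.0103). Within the stages these were 0.91, 0.97 and 0.43 for *IRF9* and 0.83, 0.66 and 0.62 for *IRF3*. Between the sets, *IFNAR1* and *IRF3* ran in opposite directions (r = −0.55, permutation adjusted p = 0.0308; rho = −0.58, 0.0493), with −0.49, −0.46 and −0.84 within stages. *JAK1* and *IRF3* did so by rho (−0.68, permutation adjusted p = 0.0429) but missed the threshold by r (−0.55, 0.109), with −0.43, 0.15 and −0.89 within stages. Leaving out the 2 libraries farthest from the median on the x axis, r of the 6 positive pairs was 0.70, 0.66, 0.71, 0.85, 0.82 and 0.74 in the order given, and that of *IFNAR1* and *IRF3* was −0.45. *TYK2*, which fell with the receptor chains between stages, had an r of 0.08 with *IFNAR1* and −0.20 with *IFNAR2* between libraries of a stage. The stages differed in these values, with −0.80, 0.15 and 0.15 for *IFNAR1* and −0.60, 0.44 and −0.35 for *IFNAR2* within Y-A, Y-E and Y-P. It passed with no member by r, and by rho with *SOCS1* alone (r = 0.44, permutation adjusted p = 0.109; rho = 0.58, 0.0493).

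**Figure D4:**
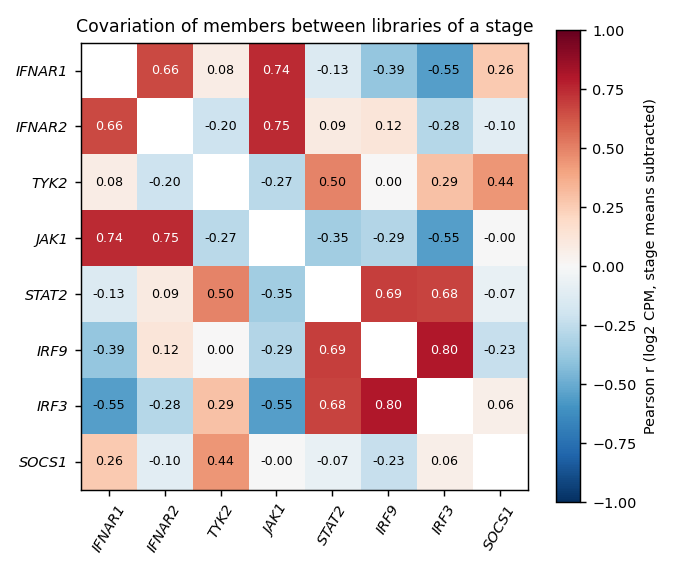
Pearson r of log2 CPM between each pair of members over 18 libraries, with stage means subtracted (color scale from −1 to 1). IFNAR1, IFNAR2 and JAK1 form a group with r from 0.66 to 0.75, and STAT2, IRF9 and IRF3 another with r from 0.68 to 0.80.

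Over all 18 libraries with stage differences included, the genes whose log2 CPM was most like that of *IFNAR1* were *JMJD1C* (r = 0.98), *FAM135A* (0.98) and *SOS1* (0.97). Those nearest to *IFNAR2* were *C16orf72*, *CDS2* and *IFNGR2*, each with r = 0.94. Those nearest to *TYK2* were *PAQR4* (0.93), *TLE3* (0.92) and *ZNF592* (0.92). These values describe the same libraries and share their depth, and no test was made.

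The receptor chains lie in a cluster of cytokine receptor genes, and the values of the neighbours in Y-P vs. Y-E are given beside them. *IFNGR2*, a chain of the type II interferon receptor that follows *IFNAR1* on the chromosome, was lower (log2 fold change −0.79, SE 0.15, adjusted p = 0.00199). *IL10RB*, which lies between *IFNAR2* and *IFNAR1* and serves the interleukin-10 and type III interferon receptors, gave −0.31 (adjusted p = 0.068). *TMEM50B*, the named gene after *IFNGR2*, gave 0.09 (adjusted p = 0.818). Differences between these genes were not tested.

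The rest of the interferon pathway was counted on lists that were chosen with earlier results of these data known. Of the 81 listed genes in the table, 79 were tested, and in Y-P vs. Y-E 3 were higher and 12 lower, 19.0% against 14.4% of all genes tested. Their median log2 fold change was −0.11, beside 0.04 over all genes. The count of 15 was 8 without Y-E replicate 2, 9 without Y-E replicate 3 and 7 without Y-E replicate 5. In Y-P vs. Y-A 1 listed gene passed (5.83% of all genes). In Y-E vs. Y-A none did with edgeR (0.0207% of all genes), with 5 at an unadjusted p under 0.05 (6.2%) and 1 with DESeq2 (1.18% of the genes to which it gave an adjusted p). The single gene in Y-P vs. Y-A became 3 when Y-P replicate 3 was left out, and 2 without Y-A replicate 1, Y-E replicate 4 or Y-P replicate 1. For the fits that left out a library, the share of all genes called is not given, so these changes may not be particular to the lists.

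**Figure D5:**
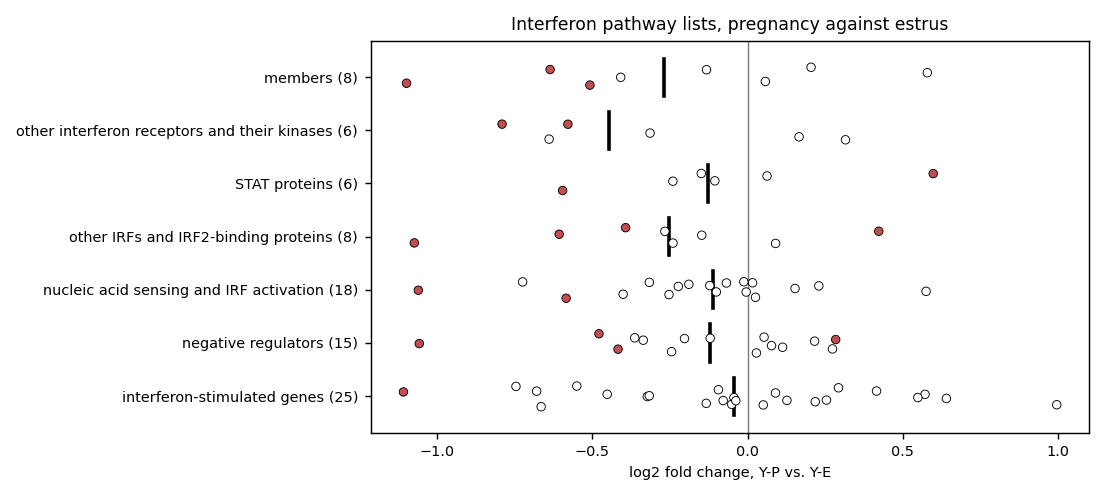
Log2 fold change in Y-P vs. Y-E (x axis) of the members and of the tested genes on each list (rows, with the number of genes); filled points passed an adjusted p of 0.05 and the vertical bar is the median. The median of the members is −0.27 and that of the interferon-stimulated genes is −0.04. Of the latter, 1 of 25 genes passed the test, beside 14.4% of all genes tested.

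The genes that passed on each list are given for Y-P vs. Y-E, where 8.68% of all genes tested were lower and 5.77% higher. Of 29 ligand names 2 were in the table. *IFNE* had at most 2 counts, under the floor. *IFNG*, the type II interferon, had 6 to 85 counts per library and a log2 fold change of 0.82 in Y-P vs. Y-E (adjusted p = 0.329). Among the 6 other receptor and kinase genes, both chains of the type II interferon receptor were lower, *IFNGR2* as above and *IFNGR1* with a log2 fold change of −0.58 (adjusted p = 0.00981).

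Among the 6 other STAT genes, *STAT3*, which serves interleukin-6 type receptors, was lower (−0.60, adjusted p = 0.0124) and *STAT4*, which serves the interleukin-12 receptor, higher (0.60, adjusted p = 0.0257). Of 8 genes on the list of other interferon regulatory factors, which also holds the IRF2-binding protein genes, *IRF1* (−0.61, adjusted p = 0.0393) and the IRF2-binding protein genes *IRF2BP2* (−0.39, 0.0369) and *IRF2BPL* (−1.07, 0.0495) were lower, and *IRF8*, a factor of myeloid and B cell development, was higher (0.42, 0.04). Of 18 genes of nucleic acid sensing, the adaptor gene *MYD88* (−1.06, adjusted p = 0.00117) and *TANK* (−0.58, 0.00619) were lower.

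Among 15 other negative regulators, *SOCS3*, the relative of *SOCS1*, was lower (−1.06, SE 0.27, adjusted p = 0.0153), as were *PIAS1* (−0.48, 0.0206) and *PIAS2* (−0.42, 0.0267). The phosphatase gene *PTPN11* was higher (0.28, 0.0349). Of the 25 interferon-stimulated genes, which lie downstream of the members, 1 passed in Y-P vs. Y-E. That is a smaller share than the 14.4% of all genes tested. The gene that passed was *PARP14*, at 379 ± 121 CPM in Y-A, 378 ± 99.6 CPM in Y-E and 175 ± 58.7 CPM in Y-P (SD, n = 6). It was lower in Y-P vs. Y-E (log2 fold change −1.11, adjusted p = 0.00374) and in Y-P vs. Y-A (−1.11, adjusted p = 0.00998). The most abundant of the list in FPKM, *IFIT1* and *SAMD9*, gave −0.32 (adjusted p = 0.672) and −0.75 (adjusted p = 0.0645) in Y-P vs. Y-E. Other genes that led their lists in FPKM without passing were *STAT6* (−0.15), *IRF2* (−0.24), *PTPN6* (−0.24) and *PTPN1* (−0.20).

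Cell type markers moved in the same comparison as the members. Of all genes tested in Y-P vs. Y-E, 8.68% were lower and 5.77% higher, and the marker counts stand beside these shares. Of 7 neutrophil markers in the table, 5 were lower in Y-P vs. Y-E (*CSF3R*, *MGAM*, *S100A9*, *MMP9* and *S100A12*; median log2 fold change of the 7 −1.45). Their sum ran from 5926 to 13780 CPM in Y-E (8174 to 13780 without replicate 6), from 3575 to 6938 CPM in Y-P and from 4565 to 10400 CPM in Y-A. Of 5 T cell markers, *CD3G* and *CD5* were higher in Y-P vs. Y-E, and the sum ran from 757 to 979 CPM in Y-E and from 917.5 to 1568 CPM in Y-P. Of 4 monocyte markers *CD68* was lower, with sums of 481 to 1042 CPM in Y-E and 357 to 756.5 CPM in Y-P. The red cell markers (3 of 3) and the platelet markers (2 of 3) were also lower in Y-P vs. Y-E, with the platelet gene *GP1BB* at or under 3 counts in every library. None of the 4 plasmacytoid dendritic cell, 7 B cell, 3 NK cell or 4 leukocyte markers passed. With 14.4% of all genes passing, lists this short can hold none, so these counts decide little. The part of these shifts in the lower *IFNAR1*, *IFNAR2* and *TYK2* was not tested.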

How the data were processed

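Whole blood was sequenced as polyadenylated RNA (paired ends, dUTP libraries). The authors trimmed reads with Cutadapt 1.9, aligned them to *Bos grunniens* v101 with HISAT2 2.2.1, and assembled and quantified with StringTie 2.1.6 and ballgown (versions from the submitters' processing notes). They deposited FPKM (fragments divided by transcript length and sequencing depth) and whole-number counts for each gene and library. How the deposited counts were made, and whether strand was used, is not given in the sources used here.

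The test of the counts used edgeR 4.0.16 under R 4.3.3 (filterByExpr, TMM, quasi-likelihood, two-sided, stage as the only factor, all 18 libraries), with Benjamini-Hochberg adjustment over the 14508 genes tested in each comparison. All 8 members were tested, and the script was checked on simulated data. With changes simulated in Y-E vs. Y-A, it recovered 23% of the genes changed 1.5-fold and 53% of those changed 2-fold. Changes of this size or smaller can therefore be missed. The 100 genes per fold were drawn at any level, and fewer genes were changed than passed in Y-P vs. Y-E. These shares therefore do not give the sensitivity for the abundant members or for that comparison. Intervals in the report are 95% intervals of the fit. Floors cover counting error only. Alternatives were DESeq2 1.42.0, limma 3.58.1 on log2(FPKM + 1) or log2(FPKM + 0.1), other scalings and filters, the replicate block and leaving out each library. Ratios and correlations were computed with Python 3.11.15, numpy 2.4.6, pandas 2.3.3 and scipy 1.17.1, and figures drawn with matplotlib 3.10.9. Likeness used log2(CPM + 0.5).

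The members and lists were chosen with earlier results of these data known. Named were all members, up to 4 genes per list past the test, the 2 of each pathway list with the highest mean FPKM, and the 3 genes most like each member that passed; the neighbours of the receptor genes and the cell markers were named beside this rule, with their values known. A gene that the rule would name is not reported here. The replicate numbers were taken as the cows, since the methods speak of samples tracked over the stages and of 6 cows, although no label or method ties a number to a cow. Deviations of same-numbered libraries correlated at 0.112 to 0.653 (Y-E and Y-A), −0.07 to 0.484 (Y-P and Y-A) and −0.08 to 0.492 (Y-P and Y-E). The highest value of each comparison was that of replicate 6. Differently numbered libraries were not correlated, so these values do not decide whether a number stands for a cow. The correlations were planned over more pairs and cover the 28 pairs of the members present.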

Additional observations from a re-analysis of the deposited data

Results flagged for a closer look

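In Y-E, *JAK1* was lowest in replicate 4 at 1085 CPM, while the other 5 Y-E libraries lay close together up to 1220 CPM. The gap to the next library was 0.7 of the range in log2 CPM, above the critical value of 0.625 for 6 libraries. Of 24 groups searched (8 members in 3 stages) this was the only one beyond that value, and chance alone places about 1 in 20 groups there. The same library was also the lowest of its stage in CPM of *IFNAR1*, *IFNAR2*, *TYK2*, *STAT2* and *IRF9*. It had the highest TMM factor of the Y-E libraries (1.067), and in FPKM its *JAK1* level (219.2, lowest 205.1 in replicate 3) and its *TYK2* level (50.0, lowest 46.8 in replicate 2) were not the lowest, while those of the other 4 genes were.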

How the results depend on the processing

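Over 27 alternatives, *IFNAR1* passed in Y-P vs. Y-E in 27 (log2 fold change −1.26 to −0.94, adjusted p from 6.02e-06 to 0.0127), *IFNAR2* in 25 and *TYK2* in 24. In Y-P vs. Y-E 1 member, *IFNAR1*, passed by the study's fold rule. It fell short of that rule without Y-P replicate 2 (log2 fold change −0.96). By adjusted p alone, leaving out 1 library gave 3 to 4 members. In Y-P vs. Y-A 1 member passed with DESeq2 and 1 with the replicate block, and leaving out 1 library gave 0 to 1. Over the 3 stages 1 member passed with library sizes alone and 1 with limma on log2(FPKM + 0.1), and leaving out 1 library gave 1 to 3. The replicate block changed no other call of a member. Of the listed pathway genes, DESeq2 called 1 in Y-E vs. Y-A. In Y-P vs. Y-A the number was 3 with library sizes alone, 5 with DESeq2, 5 and 4 with limma (pseudocounts 1 and 0.1), 2 with only the stages compared, 5 with the replicate block, 3 with the block over 17 libraries (added after seeing the data), and 1 to 3 leaving out 1 library. In Y-P vs. Y-E it was 6 with limma on log2(FPKM + 0.1) and 7 to 17 leaving out 1 library. DESeq2 called 10.9% of the genes to which it gave an adjusted p in Y-P vs. Y-A. Apart from DESeq2 and the study's rule, the share of all genes called under these settings is not given. Reversed values near 0 were those of *IRF9* in Y-P vs. Y-A (0.0695 with library sizes alone, 0.107 and 0.108 with limma) and Y-P vs. Y-E (0.0178, 0.0536 and 0.0541). Leaving out 1 library, *IRF9* in Y-E vs. Y-A ran from −0.0572 to 0.133 and *JAK1* in Y-P vs. Y-E from −0.0019 to 0.116. The cause of these shifts was not tested. Among the interferon pathway genes named here, low counts limit *SOCS1*, *IFNG* and *IFNE*.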

Other observations

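The members without a stage difference also had close companions, which were named after their values were seen and are given with no test. Over the 18 libraries *JAK1* was most like *PTPRC*, the pan-leukocyte gene of CD45 (r = 0.95 of log2 CPM), and both were near 0 in Y-P vs. Y-E (log2 fold changes of 0.06 and 0.05). *IRF9* was most like *GAL9* (r = 0.94) and *IFI35*, an interferon-induced gene (0.93). *IRF3* was most like *UBA7*, which encodes the activating enzyme of the ubiquitin-like protein ISG15 (0.92), and *BCL2L12* (0.88). *SOCS1* was most like *ZNF316* (0.94). *UBA7* gave a log2 fold change of 0.29 in Y-P vs. Y-E (adjusted p = 0.48).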
